A study of Mus musculus with 15 samples.

Results

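The 9 genes described here are markers of mouse liver endothelium or secreted signals for hepatocytes. They are Pecam1, Kdr, Stab2, Lyve1, Clec4g, Wnt2, Wnt9b, Rspo3 and Hgf. They were chosen by name, and each matched 1 row of the 21702 genes in the count table. All 9 were among the 12172 genes with enough counts to be tested. The liver was sampled in 15 female wild-type C57BL/6 mice (C57BL/6N in the study's methods) in 5 groups of 3, and all of them had received an adeno-associated virus of serotype 8 (AAV8) by tail vein, in the pregnant groups before mating. Non-pregnant (NP) mice, mice at 8 days post-coitum (8 dpc) and mice at 16 dpc received AAV8-null, an empty control vector. A second set of mice at 8 dpc and at 16 dpc received AAV8-p21, which expresses the cell cycle inhibitor p21 (gene Cdkn1a). Both vectors carry the TBG promoter, which is active in hepatocytes. No NP group received AAV8-p21. The study's methods give an age of 8 to 14 weeks and state that the females were virgin before the experiment. Its reporting summary gives a wider age range, with an upper limit above 14 weeks.

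Liver sinusoids are lined by a specialised, fenestrated endothelium that clears macromolecules from blood through scavenger receptors and lectins, among them Stab2, Lyve1 and Clec4g. The endothelium also acts on hepatocytes by secreted signals, called angiocrine signals. Wnt2, Wnt9b and the Wnt enhancer Rspo3 come from endothelium around the central vein and maintain the pericentral gene programme of hepatocytes, and Hgf, made by stellate and endothelial cells, is a mitogen for hepatocytes. Pecam1 is an adhesion molecule of endothelial junctions, and Kdr is the main receptor for VEGF-A.

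Whole liver was sequenced, so a lower value of an endothelial gene can have several sources. It can come from fewer endothelial cells, from less RNA per cell or from more RNA of other cells, and these cannot be told apart. Library totals ranged from 12280709 to 17615185 counts. Values are given as CPM, the counts of a gene relative to the library total, with totals scaled by the trimmed mean of M-values (TMM) method. Cdkn1a, the gene carried by the virus, lay between 347 and 1664 CPM in the 6 AAV8-p21 livers and between 3.29 and 127 CPM in the 9 AAV8-null livers, and these ranges do not overlap. Alb alone took 7.90 to 12.9% of counts in NP and 8 dpc livers and 20.5 to 27.8% at 16 dpc. The scaling factors were 1.10 to 1.25 in NP and 8 dpc livers and 0.682 to 0.839 at 16 dpc. Comparisons of the 9 genes that involve 16 dpc are therefore given below with library totals as well, and so are the counts of the other gene lists from 8 to 16 dpc.

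The genes lie at separate loci on GRCm38 (GENCODE vM21 annotation). Pecam1 is on chromosome 11 from 106654217 to 106750628 and Wnt9b on the same chromosome from 103727364 to 103749821. Kdr spans 75932827 to 75978458 and Hgf 16553495 to 16620152 on chromosome 5. Stab2 spans 86841198 to 87008025 and Rspo3 29452416 to 29535867 on chromosome 10. Lyve1 is on chromosome 7 from 110850607 to 110863239, Clec4g on chromosome 8 from 3707064 to 3720651, and Wnt2 on chromosome 6 from 17988940 to 18030585. All but Hgf are on the minus strand. Exons of Clec4g, Rspo3 and Stab2 overlap those of an antisense gene over 146, 404 and 141 bases, and those of Hgf overlap an unverified gene model on the same strand over 484 bases. The strand setting of the counting was not given in the sources used here, so reads in these stretches cannot be assigned with certainty.

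Promoters were available from RefSeq (GRCm38.p6) for 6 of the 9 genes. The 250 bases before the start are printed for 4 of them, to show how the upstream sequences of these genes differ in base composition. The printed windows lie upstream of the annotated gene or share 3 bases with it (Kdr). Capitals mark TATAAA in Clec4g and CCGGAA, an ETS family motif, in Kdr, each found on the reverse strand of the printed sequence.
Clec4g chr8:3720652-3720901, minus strand: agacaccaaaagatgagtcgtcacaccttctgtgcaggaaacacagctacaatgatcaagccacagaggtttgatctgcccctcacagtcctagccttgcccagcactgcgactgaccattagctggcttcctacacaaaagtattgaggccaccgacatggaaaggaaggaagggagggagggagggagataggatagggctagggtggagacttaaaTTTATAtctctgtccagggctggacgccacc
Kdr chr5:75978456-75978705, minus strand: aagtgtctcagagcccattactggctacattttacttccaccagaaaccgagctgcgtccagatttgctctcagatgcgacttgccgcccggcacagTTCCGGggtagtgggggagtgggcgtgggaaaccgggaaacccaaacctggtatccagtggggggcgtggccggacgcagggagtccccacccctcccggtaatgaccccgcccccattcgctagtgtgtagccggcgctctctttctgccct
Wnt9b chr11:103749822-103750071, minus strand: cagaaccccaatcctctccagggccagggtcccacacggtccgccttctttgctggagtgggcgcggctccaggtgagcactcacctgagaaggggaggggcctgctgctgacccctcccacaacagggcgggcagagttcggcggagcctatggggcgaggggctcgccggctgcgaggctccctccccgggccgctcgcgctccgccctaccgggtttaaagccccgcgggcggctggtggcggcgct
Hgf chr5:16553245-16553494, plus strand: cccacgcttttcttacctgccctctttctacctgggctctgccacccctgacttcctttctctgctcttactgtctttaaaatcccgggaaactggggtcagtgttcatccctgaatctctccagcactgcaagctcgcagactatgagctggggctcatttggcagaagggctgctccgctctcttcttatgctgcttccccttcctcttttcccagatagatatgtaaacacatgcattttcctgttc
The windows of Wnt9b and Kdr were rich in CpG, with 22 and 16 CpG and a GC content of 72.0% and 61.6%, and that of Wnt2, which is not printed, had 20 CpG and 63.6%. Clec4g and Hgf had 4 CpG each and Stab2 had 3, with a GC content of 52.0%, 50.8% and 53.2%. A second Hgf window, from 16553651 to 16553900, lies inside the annotated gene and had 5 CpG and 51.2%. The medians over 32851 RefSeq promoters of the same length were 6 CpG and 52.4%. On either strand, TATAAA was present in 12.4% of those promoters and CCGGAA in 12%. Wnt2 held the GATA motif GATAA at 2 places, 40 and 9 bases before the RefSeq start, a motif present in 22.6% of promoters. The Wnt2 window, from 18030446 to 18030695, overlaps the annotated gene, and both places lie inside that gene. The Stab2 window, from 87007943 to 87008192, overlaps its gene too. None of the 6 genes held CACGTG, an E-box, or ATCAAAG, a TCF motif, in these windows. These matches are descriptions of sequence, and binding was not measured.

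Levels can be compared between genes per length of exon. In NP livers Clec4g stood highest at 23.2 ± 3.54 CPM per kb (SD, n = 3), above the range of every other gene. Stab2 followed at 5.56 ± 1.85, Kdr at 4.94 ± 2.41, Lyve1 at 3.08 ± 1.81, Pecam1 at 2.59 ± 0.654 and Wnt2 at 2.15 ± 0.480 CPM per kb, and each of these overlapped its neighbour in the order. Rspo3 at 1.34 ± 0.262 lay below every Wnt2 value, and overlapped Hgf at 0.974 ± 0.593 CPM per kb. Wnt9b was lowest at 0.298 ± 0.163 CPM per kb and overlapped Hgf. Wnt9b was covered by only 4 to 35 counts per library, so that its values carry the largest counting error of the 9 genes.

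The 5 receptors and adhesion molecules were measured as follows, in CPM per liver. Pecam1 was 11.6, 19.6 and 17.3 in NP livers, 9.43, 6.61 and 10.3 at 8 dpc with AAV8-null, 12.5, 28.2 and 18.0 at 16 dpc with AAV8-null, 14.7, 10.7 and 9.81 at 8 dpc with AAV8-p21, and 15.2, 19.1 and 15.1 at 16 dpc with AAV8-p21. All 3 AAV8-null livers at 8 dpc lay below all NP livers, and under each virus all livers at 16 dpc lay above those at 8 dpc. Kdr was 19.5, 56.6 and 57.8 in NP livers, 22.8, 14.6 and 29.0 at 8 dpc with AAV8-null, 28.5, 57.7 and 35.1 at 16 dpc with AAV8-null, 32.1, 23.2 and 25.1 at 8 dpc with AAV8-p21, and 36.6, 38.8 and 31.5 at 16 dpc with AAV8-p21. One NP liver was low for Kdr, and the stages overlapped under both viruses.

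Stab2, the hyaluronan and scavenger receptor, was 30.1, 60.0 and 55.9 CPM in NP livers, 33.9, 24.2 and 27.6 at 8 dpc with AAV8-null, 43.5, 57.2 and 42.8 at 16 dpc with AAV8-null, 30.01, 26.4 and 31.0 at 8 dpc with AAV8-p21, and 38.5, 43.0 and 42.4 at 16 dpc with AAV8-p21. The stages did not overlap under either virus. Lyve1, a second hyaluronan receptor, was 3.39, 9.63 and 13.9 CPM in NP livers, 2.56, 1.19 and 8.48 at 8 dpc with AAV8-null, 7.58, 12.6 and 15.1 at 16 dpc with AAV8-null, 3.16, 2.45 and 1.54 at 8 dpc with AAV8-p21, and 5.03, 4.22 and 6.63 at 16 dpc with AAV8-p21. Replicate 3 at 8 dpc with AAV8-null was above the lowest one at 16 dpc, and at 16 dpc all AAV8-p21 livers were below all AAV8-null livers. Clec4g, a lectin of sinusoidal endothelium, was 48.1, 65.5 and 58.0 CPM in NP livers, 43.6, 34.6 and 37.4 at 8 dpc with AAV8-null, 67.8, 59.5 and 73.4 at 16 dpc with AAV8-null, 59.9, 42.9 and 63.5 at 8 dpc with AAV8-p21, and 69.6, 68.2 and 62.3 at 16 dpc with AAV8-p21. Its AAV8-null livers at 8 dpc were below all NP and all 16 dpc livers.

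The ligands were less abundant. Wnt2 was 3.67, 5.06 and 5.80 CPM in NP livers, 1.92, 1.96 and 1.92 at 8 dpc with AAV8-null, 3.39, 4.58 and 2.40 at 16 dpc with AAV8-null, 1.73, 1.66 and 1.26 at 8 dpc with AAV8-p21, and 3.07, 2.54 and 2.62 at 16 dpc with AAV8-p21. All livers at 8 dpc, under either virus, lay below all NP and all 16 dpc livers. Wnt9b was 0.554, 2.01 and 1.47 CPM in NP livers, 0.698, 0.238 and 1.04 at 8 dpc with AAV8-null, 1.78, 1.92 and 1.25 at 16 dpc with AAV8-null, 1.73, 0.970 and 0.350 at 8 dpc with AAV8-p21, and 2.30, 1.38 and 0.947 at 16 dpc with AAV8-p21. The stages overlapped under AAV8-p21 and not under AAV8-null. Rspo3 was 4.71, 4.51 and 3.22 CPM in NP livers, 3.49, 2.26 and 2.34 at 8 dpc with AAV8-null, 5.35, 4.25 and 3.83 at 16 dpc with AAV8-null, 4.49, 4.57 and 5.46 at 8 dpc with AAV8-p21, and 5.37, 4.14 and 4.08 at 16 dpc with AAV8-p21. It was the 1 gene of the 9 whose mean was higher at 8 dpc than at 16 dpc under AAV8-p21. Hgf was 2.15, 10.1 and 8.74 CPM in NP livers, 6.69, 3.27 and 5.10 at 8 dpc with AAV8-null, 6.86, 24.2 and 13.2 at 16 dpc with AAV8-null, 8.24, 6.56 and 2.87 at 8 dpc with AAV8-p21, and 7.84, 10.6 and 13.8 at 16 dpc with AAV8-p21. It had the widest spread of the ligands within NP and within 16 dpc AAV8-null livers.

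**Figure D1:**
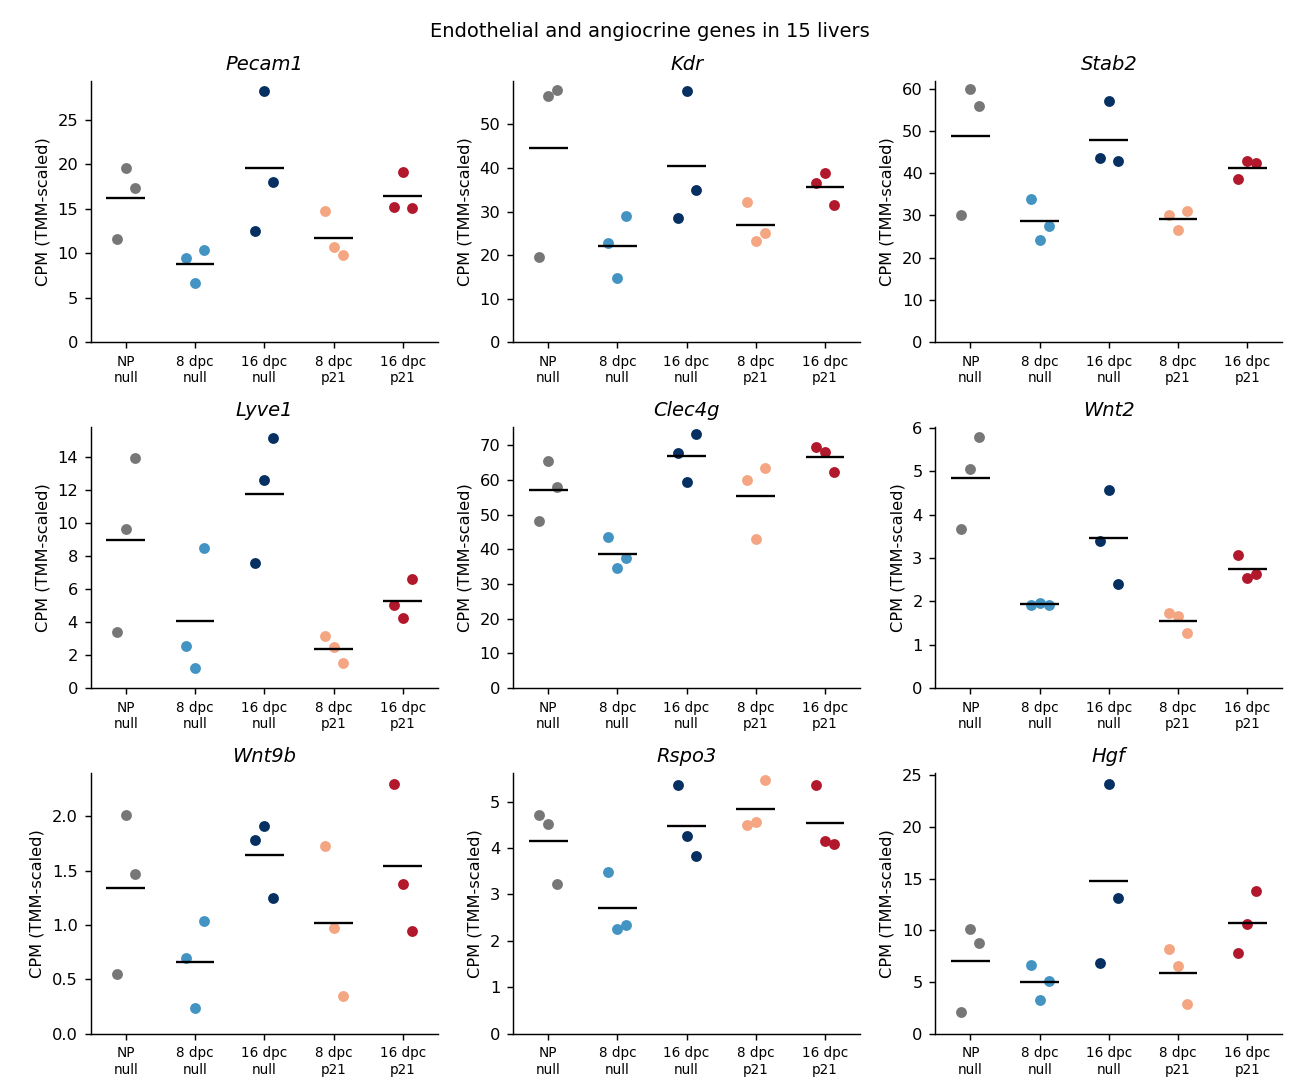
Each panel plots the TMM-scaled CPM of 1 gene (vertical axis, from 0) in 15 livers, with 1 point per liver, a bar at the mean of the 3 livers of a group, and the groups named by stage and virus. Livers at 8 dpc are low in most panels, and Wnt2 at 8 dpc lies between 1.26 and 1.96 CPM, below all other livers.

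The livers of a group did not vary independently from gene to gene. In the NP group replicate 1 was lowest for 8 of the 9 genes, the exception being Rspo3. At 8 dpc with AAV8-null, replicate 2 was lowest for 8 of the 9, the exception being Wnt2. In both cases the same liver was low for most endothelial genes, and the summed level of 20 other pan-endothelial markers in NP livers ranged from 221 to 357 CPM. At 8 dpc with AAV8-null, 10 mitotic genes summed to 138, 142 and 15.6 CPM in replicates 1, 2 and 3. Replicate 3 of that group thus stood apart for mitotic genes, and comparisons below of the 9 genes with this group were also run without it. In NP livers the same 10 genes summed to 25.5, 5.85 and 9.16 CPM in replicates 1, 2 and 3. Cdkn1a was 33.7, 5.12 and 3.29 CPM in these NP livers, so NP replicate 1 was highest for both.

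The first comparison asked what early to mid pregnancy did to these genes in AAV8-null mice. With edgeR's quasi-likelihood test, all 9 had a log2 fold change below 0 at 8 dpc against NP livers (51% of all genes did), and none passed an adjusted p of 0.05, the limit used throughout (Benjamini-Hochberg over the 12172 genes). In this comparison 0% of all genes were called, with 803 genes, 6.6%, at an unadjusted p under 0.05. Of the 9 genes, 6 had an unadjusted p under 0.05 and lay lower (Pecam1, Kdr, Stab2, Clec4g, Wnt2 and Rspo3), against 3.37% of all genes. Pecam1, Clec4g and Wnt2 did not overlap between groups, against 5.52% of all genes that were lower without overlap.

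Wnt2 had the smallest p of the 9, with a log2 fold change of -1.32 ± 0.271 (SE; 95% interval -1.90 to -0.74; edgeR unadjusted p = 0.000226, adjusted p = 0.264). Mean Wnt2 was 1.94 ± 0.0245 CPM at 8 dpc and 4.84 ± 1.08 CPM in NP livers (SD, n = 3 each). The median log2 fold change of the 9 genes was -0.88, with a range from -1.32 to -0.48, while the median of all genes tested was -0.01. An exact permutation test with 3 livers against 3 cannot give a p below 0.1, and it gave 0.1 for Pecam1, Clec4g and Wnt2. The calls depended on the tool: DESeq2 called 1 of the 9 (Wnt2) among 66 genes, and limma voom with sample weights called 7 among 1850 genes, all but Rspo3 and Hgf.

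On leaving out each of the 6 livers in turn, none of the 9 genes was called and all stayed below 0. Wnt2 lay between -1.48 and -1.17 on the log2 scale. Lyve1, at -1.13 with all livers, moved to -2.25 without replicate 3 of 8 dpc AAV8-null, to -0.69 without replicate 2 of that group and to -0.67 without NP replicate 3. Hgf, at -0.48 with all livers, moved to -0.91, -0.11 and -0.29 without NP replicates 1, 2 and 3, and to -0.74 and -0.25 without replicates 1 and 2 of 8 dpc AAV8-null. Wnt9b moved from -1.01 to -0.59 without NP replicate 2 and to -0.62 without replicate 2 of 8 dpc AAV8-null.

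Other endothelial lists were lower to a similar extent in this comparison, also with no gene called. Of 20 other pan-endothelial markers 19 were below 0 with a median log2 fold change of -0.81. Of 11 tested sinusoidal markers 10 were below 0 with a median of -0.64, and of 12 stellate cell markers 11 were below 0 with a median of -0.58. Kupffer cell markers, which mark the resident macrophages, had a median of 0.05, with 8 of 10 above 0. The summed pan-endothelial level was 310 ± 76.4 CPM in NP livers and 195 ± 19.96 CPM at 8 dpc, so that a member could be set against it within each liver. In that ratio Wnt2 was 1.58 ± 0.115% of the pan-endothelial sum in NP livers and 0.999 ± 0.122% at 8 dpc, without overlap. The test of the ratio added 0.5 CPM to both terms, which lessens the difference of genes at low CPM, and gave a log2 difference of -0.48 for Wnt2 (exact permutation p = 0.1, the smallest possible). Without the added 0.5, where the scaling of libraries cancels, it was -0.66 with the same p. For the other 8 genes the log2 difference with the added 0.5 lay between -0.57 for Lyve1 and 0.38 for Hgf, and an exact permutation p was 0.2 or more in both forms.

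The next comparison was of 16 dpc with 8 dpc, averaged over both viruses. With TMM scaling 6 of the 9 genes rose, namely Pecam1, Stab2, Lyve1, Clec4g, Wnt2 and Hgf, against 8.13% of all genes called higher, whereas with library totals alone none was called and Kdr, Stab2, Clec4g and Rspo3 turned to log2 fold changes of -0.01, -0.02, -0.10 and -0.32. Pecam1 had a log2 fold change of 0.82 ± 0.207 (SE; edgeR adjusted p = 0.0159). Stab2 had 0.62 ± 0.164 (adjusted p = 0.0192), Lyve1 1.33 ± 0.423 (adjusted p = 0.0456) and Clec4g 0.53 ± 0.130 (adjusted p = 0.0137). Among the ligands, Wnt2 had 0.82 ± 0.197 (adjusted p = 0.0119) and Hgf 1.21 ± 0.383 (adjusted p = 0.0445). Kdr at 0.64 ± 0.260 (adjusted p = 0.111), Wnt9b at 0.93 ± 0.425 (adjusted p = 0.153) and Rspo3 at 0.32 ± 0.175 (adjusted p = 0.239) did not pass. DESeq2 called the same 6 genes among 2471, and limma voom 8 of the 9, Kdr and Wnt9b included, among 3452. Kdr was also called by edgeR and by DESeq2 on the compared groups alone, at 0.64 and 0.65 (adjusted p = 0.0482 and 0.0205), so that these fits called 7. The median of the 9 genes was 0.82 and that of all genes tested -0.01.

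The size of these differences depended on the scaling. Under library totals the median of all genes tested fell by 0.65 on the log2 scale, with 66.5% of all genes called lower and 2.57% called higher, and all 9 genes stayed above that median, the lowest being Rspo3 at -0.32. With totals that leave out the 20 most abundant genes the median shift was -0.25, and 1 of the 9 genes, Wnt2, was called at 0.57 (adjusted p = 0.0456). The ratio to the pan-endothelial sum, with 0.5 CPM added to both terms, was higher at 16 dpc for all 9 genes, by log2 differences from 0.08 for Rspo3 to 1.17 for Lyve1, and an exact two-sided permutation test within virus (400 arrangements, smallest p 0.005) gave p = 0.005 for Pecam1 and Stab2, 0.01 for Kdr, Lyve1 and Wnt2, 0.03 for Hgf, 0.04 for Wnt9b, 0.05 for Clec4g and 0.635 for Rspo3. These are unadjusted and belong to 18 such tests, 2 for each gene, with this reference, and to 36 with the sinusoidal reference included. Without the added 0.5 the log2 differences ran from 0.12 for Rspo3 to 1.36 for Lyve1, Wnt9b moved from 0.52 to 0.97, and the exact permutation p changed for Hgf, to 0.025, and for Rspo3, to 0.49. With 12 other sinusoidal genes as the reference, the exact permutation test gave Wnt9b p = 0.125, Clec4g 0.09, and the difference for Rspo3 was -0.04.

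**Figure D2:**
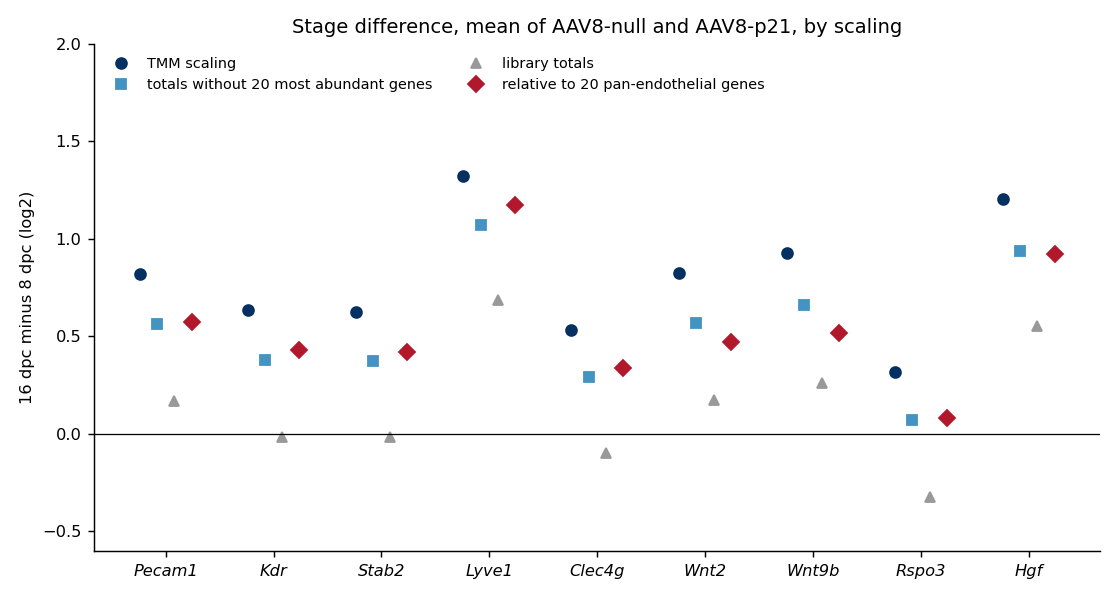
The difference between 16 dpc and 8 dpc (vertical axis, log2, mean of both viruses) is plotted for each gene under 3 scalings of the libraries and as a ratio to 20 pan-endothelial genes. Values under library totals lie lowest, with Kdr, Stab2, Clec4g and Rspo3 below 0, and Lyve1 and Hgf lie highest in all 4.

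Leaving out each of the 12 pregnant livers in turn kept Pecam1, Clec4g and Wnt2 past the limit in 12 of 12 fits and Stab2 in 10 of 12, the exceptions being the fits without replicate 2 of either AAV8-null group. Lyve1 and Hgf stayed past it in 2 of 12 each. The number of genes called ranged from 3 to 6, with 3 without replicate 2 at 8 dpc AAV8-null and 3 without replicate 2 at 16 dpc AAV8-null.

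Within AAV8-null mice alone, 2 of the 9 genes rose from 8 to 16 dpc with TMM scaling and none with library totals, against 3.16% of all genes called higher with TMM. Pecam1 rose by 1.16 ± 0.295 on the log2 scale (edgeR adjusted p = 0.0318) and Clec4g by 0.80 ± 0.185 (adjusted p = 0.0206). Livers did not overlap for 7 of the 9 genes, all except Kdr and Lyve1, against 12.5% of all genes that were higher without overlap. Without replicate 2 at 8 dpc or without replicate 3 at 16 dpc none was called, without replicate 1 at 8 dpc or replicate 2 at 16 dpc Clec4g alone was, and without replicate 3 at 8 dpc, the liver low in mitotic genes, 3 were. This comparison shares its 8 dpc livers with the comparison to NP mice.

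The AAV8-p21 livers share no sample with the 2 comparisons among AAV8-null livers, but they are part of the average over both viruses. Among them none of the 9 genes passed from 8 to 16 dpc, against 3.32% of all genes in either direction, and 2 had an edgeR unadjusted p under 0.05, against 16.4%. Wnt2 was higher by 0.81 ± 0.281 on the log2 scale (edgeR adjusted p = 0.144) and Stab2 by 0.50 ± 0.231 (adjusted p = 0.293), and with Pecam1 and Lyve1 they made 4 genes without overlap between the stages, against 11.5% of all genes higher without overlap. Under library totals Pecam1, Kdr, Stab2, Clec4g and Wnt9b turned to -0.10, -0.17, -0.06, -0.30 and -0.05, and Rspo3 was called lower at -0.66 (adjusted p = 0.0462), beside a median of all genes of -0.59 and 34% of all genes called lower. DESeq2 called none of the 9 among 797 genes and limma voom 1 (Stab2) among 1817.

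At 16 dpc the AAV8-null livers were compared with NP livers as well. None of the 9 genes passed, against 6.52% of all genes called in either direction, and none had an edgeR unadjusted p under 0.05, against 21.2%, while DESeq2 and limma voom also called none of the 9 among 1207 and 1602 genes. The log2 fold changes ranged from -0.48 ± 0.267 for Wnt2 (95% interval -1.05 to 0.09) to 1.07 ± 0.538 for Hgf (95% interval -0.08 to 2.22). For Stab2 the interval was -0.52 to 0.47 and for Clec4g -0.17 to 0.62, so that these intervals do not include a difference of 1 on the log2 scale. With library totals, which moved the median of all genes by -0.70 and called 48.6% of all genes lower, Stab2 at -0.73 and Wnt2 at -1.19 were called lower (edgeR adjusted p = 0.0231 and 0.00391), and Pecam1, Lyve1, Clec4g, Wnt9b and Rspo3 turned from above 0 to -0.42, -0.28, -0.45, -0.42 and -0.58.

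**Figure D3:**
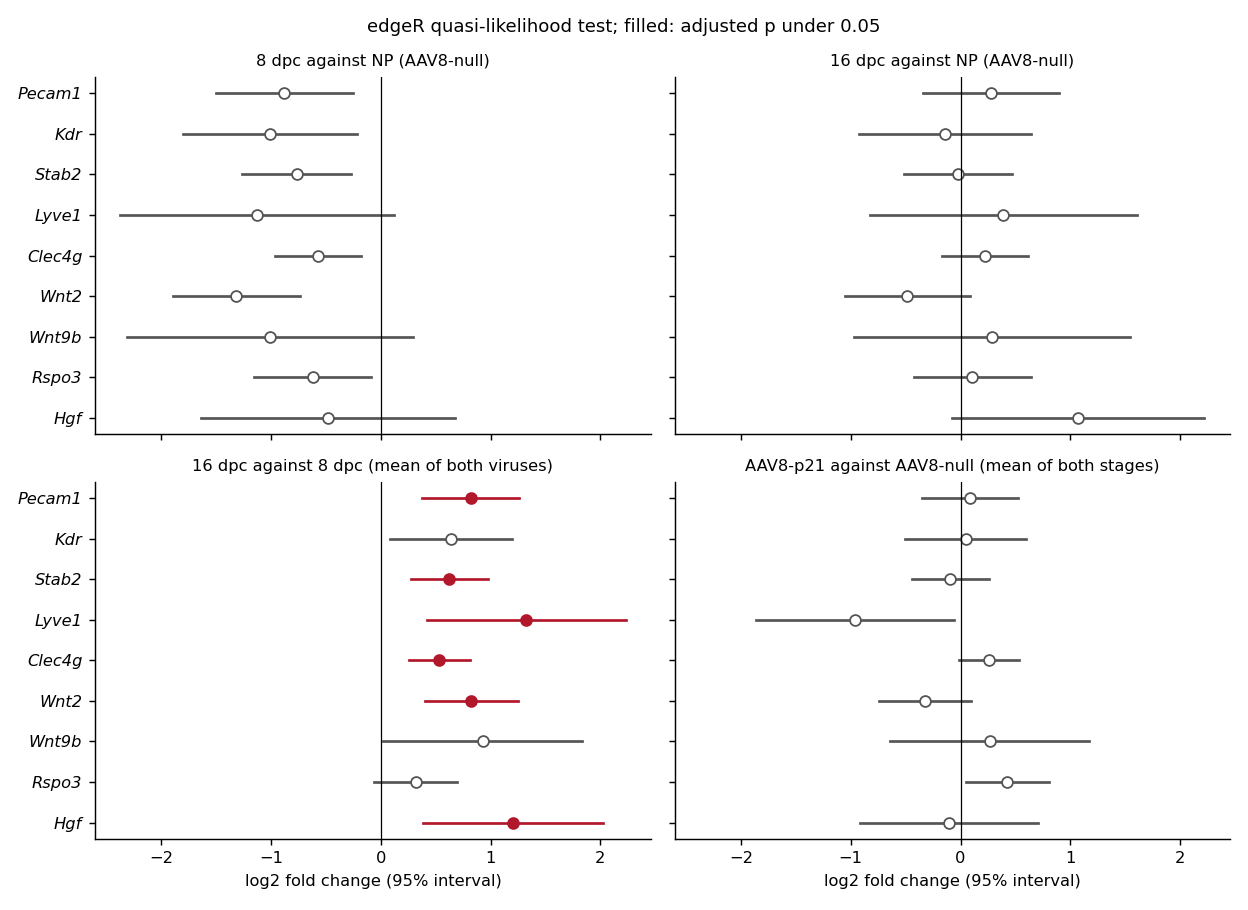
The log2 fold change of each gene (horizontal axis) is plotted with its 95% interval for 4 comparisons under TMM scaling, with filled red points where the edgeR adjusted p was under 0.05. All 9 points lie below 0 at 8 dpc against NP with none filled, and 6 are filled at 16 dpc against 8 dpc, none of which is called with library totals.

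The AAV8-p21 comparison asked whether p21 expressed from a hepatocyte promoter went with a change in these genes. None passed at 8 dpc, at 16 dpc or averaged over both stages, against 0.0246%, 0.0739% and 0.131% of all genes called in either direction. At an edgeR unadjusted p under 0.05 there were 2 of the 9 at 8 dpc, 0 at 16 dpc and 2 in the average, against 5.18%, 9.77% and 12.4% of all genes, and DESeq2 and limma voom called none of the 9 in any of them, among 29, 135 and 206 genes for DESeq2 and 105, 117 and 257 for limma voom. With library totals none of the 9 was called in the 3 comparisons either, among 3, 16 and 18 genes. In the average Lyve1 then stood at -0.92, Rspo3 at 0.47, Clec4g at 0.30, Wnt2 at -0.27 and Stab2 at -0.04, and at 16 dpc Clec4g turned from -0.01 to 0.10 and Wnt9b from -0.11 to 0.01. The log2 fold change of Cdkn1a itself was 4.40 ± 0.734 at 8 dpc (edgeR adjusted p = 0.0873) and 4.11 ± 0.512 in the average (adjusted p = 0.00251).

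Rspo3, Clec4g and Lyve1 had the smallest unadjusted p of the 9 for the virus. Rspo3 at 8 dpc was 4.84 ± 0.541 CPM with AAV8-p21 and 2.70 ± 0.688 with AAV8-null (SD, n = 3 each) without overlap, as for 5.52% of all genes that were higher, a log2 difference of 0.84 ± 0.247 (edgeR unadjusted p = 0.00419, adjusted p = 0.576). Summed stellate cell markers at 8 dpc were 349 to 426 CPM with AAV8-p21 and 207 to 315 CPM with AAV8-null, which do not overlap, and their part in this difference was not tested. Relative to the pan-endothelial sum the log2 difference of Rspo3 was 0.35 (exact permutation p = 0.2), and 0.46 without the added 0.5 (p = 0.2). Relative to the sinusoidal genes it was 0.47, and 0.58 without the added 0.5, with an exact permutation p of 0.1, the smallest possible, in both. At 16 dpc both viruses gave nearly equal Rspo3 means of 4.53 and 4.47 CPM, and the difference between the stages in the effect of the virus was -0.82 ± 0.350 (edgeR unadjusted p = 0.0333). No gene at all passed for that interaction, with 376, or 3.09%, at an unadjusted p under 0.05 and 0 by DESeq2 or limma voom on all 15 libraries. Clec4g at 8 dpc was 55.5 ± 11.01 CPM with AAV8-p21 and 38.5 ± 4.604 with AAV8-null, with overlap (log2 difference 0.53 ± 0.184, edgeR adjusted p = 0.736).

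Lyve1 lay lower with AAV8-p21, at 5.29 ± 1.23 against 11.8 ± 3.84 CPM at 16 dpc without overlap, as for 7.02% of all genes that were lower, and at 2.38 ± 0.811 against 4.08 ± 3.87 CPM at 8 dpc with overlap. Its average log2 difference was -0.96 ± 0.421 (95% interval -1.86 to -0.06; edgeR adjusted p = 0.374), and it moved to -0.40 without replicate 3 of 8 dpc AAV8-null, the liver that holds the high value of 8.48 CPM. At 8 dpc alone the log2 difference of -0.77 turned to 0.36 without that liver. Relative to the pan-endothelial sum, the average difference between viruses was -0.91 for Lyve1, -0.47 for Wnt2 and -0.29 for Stab2 on the log2 scale, with unadjusted exact permutation p of 0.04, 0.015 and 0.045, and the other 6 genes had p of 0.29 or more. Without the added 0.5 these differences were -0.96, -0.52 and -0.29 with exact permutation p of 0.05, 0.015 and 0.045. For Wnt2 this ratio was 0.598 ± 0.0828% with AAV8-p21 and 0.999 ± 0.122% with AAV8-null at 8 dpc, without overlap. The sum itself was 259 ± 32.4 CPM with AAV8-p21 and 195 ± 19.96 CPM with AAV8-null at 8 dpc, so that the reference of this ratio differed too. The average difference in Wnt2 level was -0.33 ± 0.196 (edgeR adjusted p = 0.520).

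Genes that receive these signals were listed apart from the 9. Of 13 tested receptors and secretion factors for Wnt and R-spondin, 2 rose from 8 to 16 dpc and none fell with TMM scaling, against 8.13% of all genes called higher and 8.14% called lower, whereas with library totals none was called higher and 6 were called lower, against 66.5% of all genes. The 2 that rose were Lgr4, an R-spondin receptor, by 0.72 ± 0.182 (edgeR adjusted p = 0.0165) and Fzd5, a Frizzled receptor, by 0.69 ± 0.222 (adjusted p = 0.0467), which stood at 0.07 and 0.04 with library totals, and Fzd5 was not called without replicate 3 of 8 dpc AAV8-null either (0.61, adjusted p = 0.0809). Lrp5, a Wnt co-receptor at 0.64 ± 0.211 with all livers (edgeR adjusted p = 0.0514), was called without that liver, at 0.80 ± 0.205 (adjusted p = 0.0152). Of 12 Wnt target genes of pericentral hepatocytes, 3 fell and 1 rose. Axin2, the feedback inhibitor of Wnt signalling, fell by 1.01 ± 0.296 on the log2 scale (edgeR adjusted p = 0.0324), Notum, a secreted Wnt deacylase, fell by 0.95 ± 0.214 (adjusted p = 0.00871) and Lect2 fell by 1.09 ± 0.271 (adjusted p = 0.0148), whereas Slc1a2, a glutamate transporter, rose by 1.52 ± 0.159 (adjusted p = 2.5e-05). Against NP livers, the AAV8-null livers at 16 dpc had lower Notum, Lect2 and Cyp2e1, with log2 fold changes of -1.74, -1.96 and -1.14, and higher Slc1a2, at 0.87, of the same 12 (edgeR adjusted p = 0.00402, 0.00931, 0.0288 and 0.0308), against 6.52% of all genes called in either direction. With library totals none of the 12 was called higher against NP livers, with Slc1a2 at 0.18, and 9 were called lower, against 48.6% of all genes. From 8 to 16 dpc library totals called 1 of the 12 higher and 10 lower, against 66.5% of all genes called lower. The median over the 12 was -0.27 from 8 to 16 dpc and -0.67 from NP to 16 dpc. In the virus comparison none of these lists had a gene past the limit, and Lect2 at 1.01 ± 0.271 (edgeR adjusted p = 0.154) and Notum at 0.66 ± 0.213 (adjusted p = 0.237) were the closest among the pericentral genes.

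For Hgf, the other genes listed were its receptor Met and its activators and inhibitors. Met was 70.6 ± 25.2 CPM in NP livers, 65.7 ± 11.7 at 8 dpc and 62.0 ± 17.6 at 16 dpc with AAV8-null. Among the activators, Hgfac, the HGF activator protease made by hepatocytes, rose from 8 to 16 dpc by 0.79 ± 0.218 (edgeR adjusted p = 0.0246). Hgfac was also higher at 16 dpc than in NP livers, by 1.11 ± 0.310 (edgeR adjusted p = 0.0455). With library totals neither difference in Hgfac was called, at 0.14 and 0.44. For Kdr, 12 VEGF and angiopoietin ligands and receptors were tested. From 8 to 16 dpc Flt4 and Tie1, endothelial receptors, rose by 0.88 and 0.58 with TMM scaling, but stood at 0.23 and -0.07 with library totals and were not called, and the ligand gene Vegfb fell by 1.20 on the log2 scale (edgeR adjusted p with TMM scaling 0.0106, 0.0367 and 0.0152). Vegfa, the ligand of Kdr, was 86.5 ± 5.41 CPM in NP livers, 60.5 ± 3.04 at 8 dpc and 69.2 ± 9.69 at 16 dpc with AAV8-null. For Stab2 and Lyve1, none of 6 tested hyaluronan receptors and enzymes passed from 8 to 16 dpc in the average over viruses, with an edgeR adjusted p of 0.0593 or more. Hmmr, a hyaluronan-binding mitotic gene, fell within AAV8-null mice by 3.44 ± 0.978 (edgeR adjusted p = 0.0489). Without replicate 3 of 8 dpc AAV8-null it fell by 3.95 ± 0.863 (edgeR adjusted p = 0.0127), and in the average over viruses it then passed, at -2.54 ± 0.682 (adjusted p = 0.0191).

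Other endothelial genes were set beside the 9. Of 20 pan-endothelial markers 2 rose (Esam and Tie1) and 1 fell (S1pr1) with TMM scaling, against 8.13% and 8.14% of all genes, with a median of 0.37, which was -0.28 with library totals, when none was called higher and 4 were called lower. Of 11 tested sinusoidal markers 2 rose (Flt4 and Ehd3), with a median of 0.33, which was -0.31 with library totals, when none was called higher and 4 were called lower. Of 11 tested markers of larger vessels and capillaries 4 rose: Vwf, Gja4, Thbd and Kit. Vwf, the von Willebrand factor of larger vessels, lay between 3.32 and 5.87 CPM in the 9 NP and 8 dpc livers, between 78.5 and 285 CPM at 16 dpc with AAV8-null and between 17.5 and 75.4 CPM at 16 dpc with AAV8-p21. The rise from 8 to 16 dpc was 4.31 ± 0.409 on the log2 scale (edgeR adjusted p = 1.2e-05), larger than for any of the 9 genes. Of 10 tested angiocrine signals other than the 9, Inhbb rose by 2.60 ± 0.499 and Dkk3 by 1.15 ± 0.359 (edgeR adjusted p = 0.00325 and 0.0413). Without replicate 3 of 8 dpc AAV8-null 4 of the 10 rose, where 2390 of all genes were called in either direction. With library totals Vwf, Gja4, Thbd, Inhbb, S1pr1 and Vegfb kept their call and direction, while Esam at 0.13, Kit at 0.29 and Dkk3 at 0.53 were not called, and neither was Ehd3, which turned from 0.37 to -0.27.

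Markers of other cells moved as follows from 8 to 16 dpc, where TMM scaling called 8.13% of all genes higher and 8.14% lower. Of 12 stellate cell markers 3 rose with TMM scaling (Dcn, Rgs5 and Colec11, which stood at 0.03, -0.08 and -0.14 with library totals and were not called) with a median of 0.34, none of 10 Kupffer cell markers passed with a median of -0.28, and of 10 mitotic genes 8 fell with a median of -2.15. Without replicate 3 of 8 dpc AAV8-null, where 2390 of all genes were called in either direction, 9 mitotic genes fell with a median of -2.41. Of the 3 stellate markers Rgs5 at 0.55 and Colec11 at 0.43 were then not called (edgeR adjusted p = 0.0525 and 0.0765), while Hhip was, at 1.143 (adjusted p = 0.0290). Of 5 hepatocyte markers 3 rose with TMM scaling (Alb, Apoa1 and Fgb), with a median of 0.69, and with library totals Alb and Apoa1 were called higher and Ttr lower. Their summed level was 80511 to 132949 CPM in NP and 8 dpc livers and 276654 to 445433 CPM at 16 dpc, which do not overlap, and its part in the stage differences of the 9 genes was not tested. Summed stellate markers were 207 to 315 CPM at 8 dpc with AAV8-null and 356 to 431 CPM in NP livers, which do not overlap, and their part in the values of Hgf and Rspo3 was not tested. The lymphatic markers Pdpn, Ccl21a and Mmrn1 were at 0.534 CPM or less in every liver, and Ccl21a had 0 counts in all 15. Prox1, on the same list, was 47 to 132 CPM and is also a hepatocyte gene. None of 5 cholangiocyte markers and none of 4 lymphocyte markers tested passed, while of 5 erythroid markers Alas2 rose, by 1.35 ± 0.227 (edgeR adjusted p = 0.00133), and was called higher with library totals too. With library totals, which called 66.5% of all genes lower from 8 to 16 dpc, the genes called lower were 3 of 12 stellate, 10 of 10 Kupffer cell, 10 of 10 mitotic, 2 of 5 cholangiocyte, 3 of 4 lymphocyte and 2 of 5 erythroid markers. They were also 4 of 9 genes of the HGF list, 3 of 12 of the VEGF and angiopoietin list, 3 of 6 hyaluronan genes, 1 of 11 markers of larger vessels and 2 of 10 other angiocrine signals. Of the HGF list 1 of 9 was called higher with library totals, against 2.57% of all genes.

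**Figure D4:**
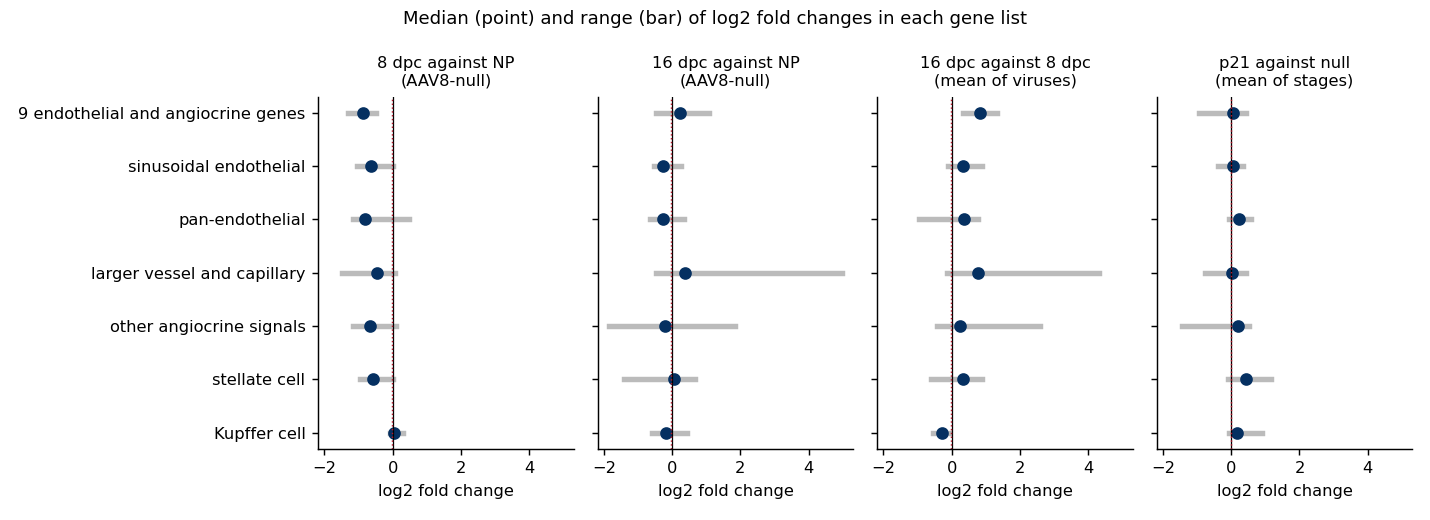
Points show the median and bars the range of log2 fold changes (horizontal axis, TMM scaling) over the tested genes of 7 lists in 4 comparisons, and the dotted line marks the median of all genes tested. At 8 dpc against NP the endothelial and stellate lists have medians from -0.88 to -0.46 and the Kupffer cell list 0.05.

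Genes whose profile over the 15 livers was nearest to each of the 9 were found by the root mean square difference of standardised log2 CPM, where 0 means an identical profile. Nearest to Kdr were Aqp1 at 0.212, Ptprb at 0.245 and Cd300lg at 0.269, all known from endothelium. Nearest to Stab2 were Flt4 at 0.323, F2r at 0.362 and Tie1 at 0.395, and nearest to Pecam1 were Vopp1 at 0.291, Flt4 at 0.325 and Hivep2 at 0.364. Nearest to Lyve1 was Numb at 0.341, to Hgf Mapk6 at 0.381, to Wnt9b Tek at 0.539 and to Clec4g Gdf10 at 0.535. Wnt2 was nearest to Plbd2 at 0.492, and Rspo3 to Col16a1 at 0.508, Col6a1 at 0.527 and Gdf2 at 0.528. Among the 9 themselves Pecam1 and Kdr were closest, at 0.434, and Rspo3 lay farthest from the rest, at 0.745 from Clec4g and 1.38 from Lyve1. These distances describe the same livers and share their stage differences, and they carry no test.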

How the data were processed

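Liver RNA from 15 mice was made into stranded mRNA libraries and sequenced. Per the labels and the study's methods, the authors used cutadapt 1.14 for trimming and HISAT2 2.1.0 for alignment (mm10, GENCODE vM25), and deposited raw HTSeq 0.12.4 counts of uniquely mapped reads per protein-coding gene. Groups followed the sample titles. The AAV8-p21 libraries at 16 dpc are numbered 1, 3 and 4 in the table, and were used as 3 replicates without pairing. The labels do not say how replicates were separated, so p-values measure the spread between these samples.

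Counts were tested with edgeR 4.0.16 (R 4.3.3) in 1 model of 5 groups with TMM scaling, filterByExpr at a minimum count of 10 and quasi-likelihood tests on 10 residual degrees of freedom. The script was tested on simulated data. Adjusted p is Benjamini-Hochberg over 12172 genes. Exact permutation tests used log2(CPM + 0.5), two-sided. DESeq2 1.42.0, limma 3.58.1, other scalings, filters and left-out libraries were alternatives. Totals without the 20 most abundant genes, leaving out 2 low libraries together, the ratio without a pseudocount and the other lists under library totals or without replicate 3 of 8 dpc AAV8-null were chosen after seeing the data. The genes and lists were chosen with earlier results of these data known. Named genes were all 9, Cdkn1a, the called genes of each other list (up to 5 by adjusted p) or, where none was called, up to 2 by unadjusted p, and the 3 nearest profiles of each gene. Not every gene this rule allows is printed, and Met, Vegfa, Alb and the lymphatic markers, given for their levels, were chosen after their values were seen. One result on a listed gene is not reported here.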

Additional observations from a re-analysis of the deposited data

How the results depend on the processing

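Of the 9 genes, the number called at 8 dpc against NP was 1 with DESeq2 on all libraries and 1 on the compared groups, and 7 with limma voom, against 0 with edgeR. At 16 dpc against NP it was 2 with library totals. From 8 to 16 dpc with AAV8-null it was 0 with library totals, with totals without the 20 most abundant genes, with edgeR on the compared groups alone and without 2 low libraries together (NP replicate 1 and 8 dpc AAV8-null replicate 2), 1 with a log2 fold change past 1, 4 with DESeq2 in both forms (among 1358 genes called on all libraries) and with limma voom (among 1707), and 0 to 3 on leaving out 1 library. With AAV8-p21 it was 1 with library totals, with DESeq2 on the compared groups and with limma voom. In the average over viruses it was 0 with library totals, 1 with totals without the 20 most abundant genes, 2 with a log2 fold change past 1, 8 with limma voom, and 3 to 6 on leaving out 1 library. Other causes than scaling were not tested.

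Of 1467 log2 fold changes of the 9 genes under alternatives 77 turned to the other sign, 34 of them under alternatives other than leaving out 1 library. Of the 77, 2 had been called, Stab2 and Clec4g in the average from 8 to 16 dpc. Library totals turned Kdr to -0.0149, Stab2 to -0.0183, Clec4g to -0.10 and Rspo3 to -0.32 in the average from 8 to 16 dpc. With AAV8-p21 they turned Pecam1 to -0.0977, Kdr to -0.17, Stab2 to -0.0617, Clec4g to -0.30 and Wnt9b to -0.0479. At 16 dpc against NP they turned Pecam1 to -0.42, Lyve1 to -0.28, Clec4g to -0.45, Wnt9b to -0.42 and Rspo3 to -0.58, for p21 against null at 16 dpc Clec4g to 0.0968 and Wnt9b to 0.0140, and for the interaction of virus and stage Wnt2 to 0.13. Totals without the 20 most abundant genes turned Pecam1 to -0.00596, Clec4g to -0.0355 and Rspo3 to -0.15 at 16 dpc against NP, Clec4g to 0.0436 for p21 at 16 dpc, and Wnt2 to 0.0152 for the interaction. Clec4g for p21 at 16 dpc also turned to 0.0187 with at least 10 counts in every library and to 0.00139 with edgeR on the compared groups. Limma voom turned Pecam1 to -0.0472 and Wnt9b to -0.11 at 16 dpc against NP, Stab2 to -0.0449 and Lyve1 to 0.27 for p21 at 8 dpc, Kdr to 0.0234 for p21 at 16 dpc and Hgf to 0.0801 for p21 in the average. Without the 2 low libraries Wnt9b turned to -0.0793 at 16 dpc against NP, Stab2 to -0.0802 for p21 at 8 dpc, Kdr to -0.0680 for p21 in the average and Lyve1 to 0.0497 for the interaction.

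Leaving out 1 library gave ranges across 0 for 21 values, none of which was called with all libraries. At 16 dpc against NP they were -0.0857 to 0.52 for Pecam1 (below 0 only without 16 dpc AAV8-null replicate 2), -0.50 to 0.0875 for Kdr, -0.28 to 0.15 for Stab2, -0.0787 to 0.70 for Wnt9b (below 0 only without NP replicate 1) and -0.0426 to 0.21 for Rspo3. From 8 to 16 dpc with AAV8-p21 Rspo3 ranged from -0.23 to 0.0102 (above 0 only without 8 dpc AAV8-p21 replicate 3). For p21 at 8 dpc the ranges were -0.0806 to 0.17 for Stab2, -1.20 to 0.36 for Lyve1 (above 0 only without 8 dpc AAV8-null replicate 3) and -0.0821 to 0.55 for Hgf (below 0 only without 8 dpc AAV8-p21 replicate 1). For p21 at 16 dpc they were -0.49 to 0.11 for Pecam1, -0.38 to 0.17 for Kdr and -0.79 to 0.11 for Hgf, each above 0 only without 16 dpc AAV8-null replicate 2, and -0.0822 to 0.0666 for Clec4g, -0.50 to 0.15 for Wnt9b and -0.12 to 0.16 for Rspo3. For p21 in the average they were -0.0348 to 0.27 for Pecam1, -0.0684 to 0.22 for Kdr, -0.0452 to 0.51 for Wnt9b (below 0 only without 8 dpc AAV8-p21 replicate 1) and -0.28 to 0.17 for Hgf. For the interaction they were -1.51 to 0.0515 for Lyve1 (above 0 only without 8 dpc AAV8-null replicate 2) and -0.22 to 0.24 for Wnt2.

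In the ratio to pan-endothelial genes from 8 to 16 dpc, sinusoidal genes as the reference turned Rspo3 to -0.0366 and gave Wnt9b 0.40 (exact permutation p = 0.125). For p21 in the average, the ratio without a pseudocount turned Wnt9b to 0.000287 and gave Lyve1 -0.96 (exact permutation p = 0.05). Over all genes, DESeq2 called 66 and limma voom 1850 at 8 dpc against NP where edgeR called 0, 1207 and 1602 at 16 dpc against NP (edgeR 794), and library totals called 8408 in the average stage comparison (edgeR 1981), 3.72% of them higher, where edgeR with TMM called 990 higher.

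The replicate numbers did not pair the samples: in no pair of groups did every same-numbered pair of libraries have a correlation of deviations over 0.1. With the replicate block on 12 libraries, 1 of the 9 genes was called from 8 to 16 dpc with AAV8-null, and 675 genes in all, against 2 and 754 without the block. No paired analysis was possible because of unmatched numbers for comparisons with 16 dpc AAV8-p21. Wnt9b, at 4 to 35 counts, is limited by depth.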
